A study of Rhodotorula toruloides with 9 samples.

Results

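Glycerol and d-glucose (d-glc) are both carbon sources on which the red basidiomycete yeast Rhodosporidium toruloides grows, and transcript abundance on glycerol was compared here with that on d-glc over all genes. The comparison used 6 of the 9 deposited libraries. Glycerol was represented by the libraries labelled glycerol replicates 1 and 2 and by the one labelled d-glc replicate 4, and d-glc by the libraries labelled d-glc replicates 1 to 3. The third library was counted as glycerol, against its label, because the glycerol column of the study's supplementary gene table equals the mean of these 3 libraries. Over the 1999 genes of that table held here, the mean FPKM of the 3 libraries differed from the column by a median of 5.96e-05%, against 2.64% for the mean of both libraries labelled glycerol. The d-glc column differed by a median of 6.19e-05% from the mean of d-glc replicates 1 to 3, and by 8.29% when replicate 4 was added.

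All libraries came from strain IFO 0880, grown in liquid yeast nitrogen base with a single carbon source added at 2%. A general culture section of the paper gives a different concentration of d-galUA and glycerol for transcriptional analysis. According to the methods, the triplicate cultures of each carbon source were inoculated from 1 starter culture in rich medium, so replicates are separate flasks of 1 strain and 1 inoculum. p-values then cover the spread between flasks and libraries only. The labels describe sampling in log phase, while the methods describe growth to the onset of stationary phase, and the RNA extraction kit also differs between the labels and the methods. The remaining 3 libraries, of cultures on d-galacturonic acid (d-galUA), entered the fit for their spread and are given beside some genes as a level.

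In yeasts, glycerol is taken up through channels or proton symporters and is phosphorylated by glycerol kinase, and glycerol 3-phosphate is then oxidized at the inner mitochondrial membrane to the glycolytic intermediate dihydroxyacetone phosphate. Glucose enters the same pathway further upstream through hexokinase, and in many yeasts it represses genes for the use of other carbon sources. Growth on glycerol therefore needs both a lower branch that yields energy and an upper, gluconeogenic branch that yields hexose phosphates. R. toruloides is known as an oleaginous yeast, which stores carbon as triacylglycerol and also makes carotenoids.

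The values are FPKM, read counts scaled by gene length and library depth, which allow levels to be set side by side between genes. Computed depth was 25.8 M to 36.6 M mapped reads of 50 bp in the glycerol group (median 35.0 M) and 28.5 M to 51.9 M mapped reads on d-glc (median 38.6 M), and the library labelled d-glc replicate 4 was the shallowest. Pearson's r of log2(FPKM + 1) over genes was 0.987 to 0.988 within the glycerol group, 0.978 to 0.980 within the d-glc group and 0.875 to 0.882 between them, as a description. The library labelled d-glc replicate 4 had 0.987 to 0.988 with the libraries labelled glycerol and 0.876 to 0.878 with d-glc replicates 1 to 3. Fitted without it, 1570 genes were called, and in 1552 of these (98.9%) its value lay nearer to the glycerol mean than to the d-glc mean. The cause of the conflict between the label and these values was not tested, and it cannot be told from these values which culture the library came from.

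After removal of 99 models with no FPKM above 0 anywhere, 8479 of 8578 gene models were tested with limma on log2(FPKM + 1), with Benjamini-Hochberg adjustment over all of them. A gene was called when it passed 3 criteria, namely an adjusted p under 0.05, a mean of 5 FPKM or more in at least 1 group and means that differed at least 2-fold. By this rule 1595 genes were called (18.8% of those tested), 763 higher on glycerol (9.0%) and 832 lower (9.81%). The adjusted p alone was under 0.05 for 4530 genes (53.4%), of which 2268 were higher and 2262 were lower on glycerol (26.7% each). Every glycerol library lay above every d-glc library for 2386 genes (28.1%) and below for 2395 (28.2%). The median fold of the called genes was 3.22 for those higher and 2.99 for those lower on glycerol. A difference of at least 10-fold was seen for 127 and 109 called genes, and one of at least 32-fold for 41 and 53.

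Without the library labelled d-glc replicate 4, 725 genes were called higher (8.55%) and 845 lower (9.97%), and 701 and 800 of these were also called with it. With the groups as labelled, 4 libraries against 2, 1 gene was called higher (0.0118%) and 0 lower (0.00%) by limma, although 843 genes were higher and 1407 lower at an unadjusted p under 0.05. The median SD of log2(FPKM + 1) was 0.33 over the 4 libraries labelled d-glc, 0.21 over d-glc replicates 1 to 3 and 0.13 over the glycerol group. The only gene called as labelled, RTO4_11536, was listed at 172 and 68.2 FPKM in the libraries labelled glycerol and at 0 in each of the other 7 libraries, that labelled d-glc replicate 4 included. Its values in the glycerol group thus reached from 0 to 172 FPKM, and a value of 0 in these tables can be a failed estimate.

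**Figure D1:**
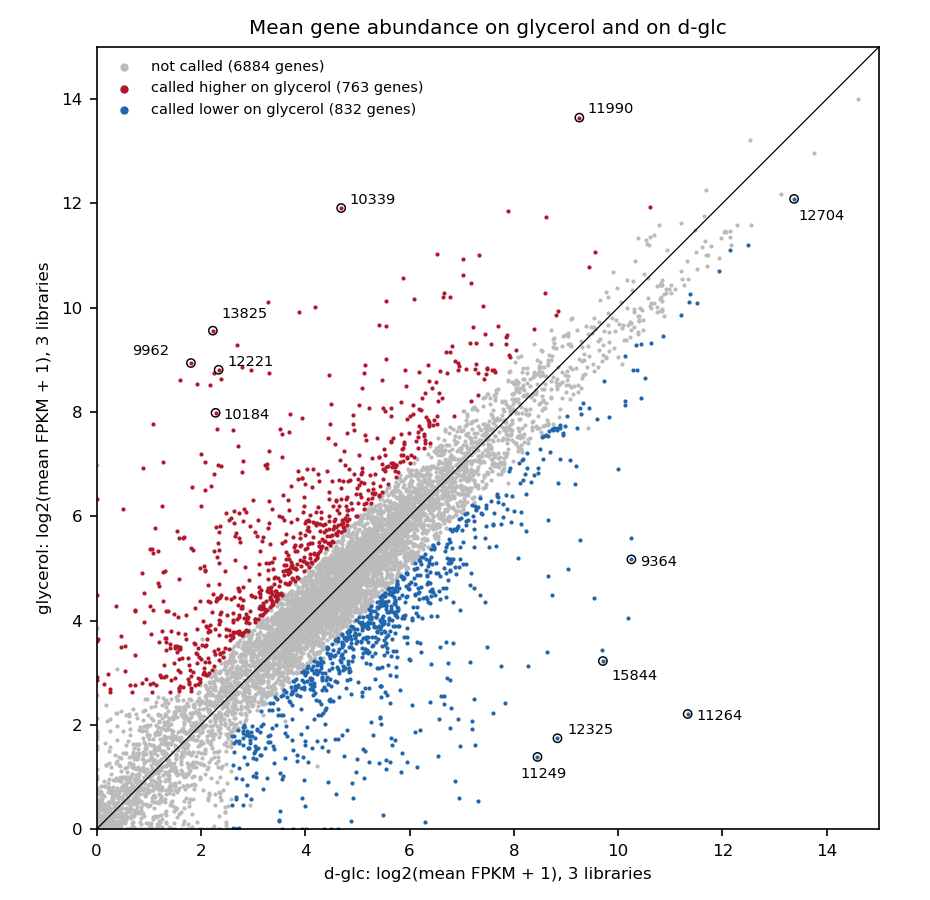
Mean abundance of each tested gene on d-glc (horizontal axis) and on glycerol (vertical axis), each as log2(mean FPKM + 1) over 3 libraries, with the line of equal abundance. Red points are the 763 genes called higher and blue points the 832 called lower on glycerol, and numbers are gene IDs without their RTO4 prefix. RTO4_11990 reached 12809 FPKM on glycerol, while RTO4_11264 went from 2583 FPKM on d-glc to 3.62 on glycerol.

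The genes called higher on glycerol made up 18.4% to 19.4% of all transcripts by TPM (transcript abundance scaled to an equal library total) in the glycerol libraries and 3.36% to 3.74% on d-glc. Those called lower made up 5.77% to 6.13% in the glycerol libraries and 16.2% to 18.3% on d-glc. These shares describe genes chosen on the same contrast. The mean on d-galUA lay between the means on glycerol and d-glc for 495 of the 763 genes higher and for 605 of the 832 genes lower on glycerol. The same count was not made over all genes tested. Choosing genes by a gap between glycerol and d-glc favors a d-galUA mean inside that gap. Names of Saccharomyces cerevisiae orthologs come from the part of the study's gene table held here, which lists mostly genes abundant on d-galUA. In this way 182 called genes could be named, 63 higher and 119 lower, and 1413 could not. These were 63 and 119 of the 1224 genes with an ortholog name, and only such genes could enter the ortholog lists. Of the 1999 genes in that part, from which the ortholog lists below were drawn, 220 were called higher and 185 lower (9.25%), and 581 (29.1%) and 612 (30.6%) passed the adjusted p alone toward glycerol and toward d-glc. Whether reads were counted by strand is not given in the sources used here, and 381 called genes overlap another gene model and are uncertain for that reason.

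Among genes with a mean of at least 50 FPKM in the higher group and no overlap between the groups, the 12 with the largest fitted log2 fold change in each direction differed at least 52.2-fold, and 4 of these 24 carried an ortholog name. In the following, glycerol values are given in the order glycerol replicate 1, glycerol replicate 2 and the library labelled d-glc replicate 4, and d-glc values in the order of replicates 1 to 3. RTO4_13825 (scaffold 5, 132835 to 135021) had 719, 820 and 722 FPKM on glycerol and 3.81, 2.19 and 5.06 on d-glc (log2 fold change 7.38, SE 0.19, limma adjusted p = 8.65e-10). It was also abundant on d-galUA (393 FPKM). Its neighbor RTO4_13824, an ortholog of the acetate transporters ADY2 and ATO2, had 450 ± 17.8 FPKM on glycerol and 151 ± 6.31 on d-glc (SD, n = 3), so that both neighbors were higher on glycerol but by very different folds. RTO4_10339 (scaffold 12, 642692 to 644646) had 3927, 4210 and 3417 FPKM on glycerol against 21.4, 24.3 and 28.7 on d-glc. This placed an unnamed gene at rank 9 of all genes on glycerol and at rank 3835 on d-glc by mean FPKM, with a mean of 95.7 FPKM on d-galUA.

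RTO4_16717 reached 1122, 1259 and 908 FPKM on glycerol against 7.98, 9.70 and 8.60 on d-glc, and its mean on d-galUA was 935 FPKM. RTO4_9137 and RTO4_10360 had means of 622 and 430 FPKM on glycerol and of 0.729 and 5.51 on d-galUA, beside 5.45 and 3.76 on d-glc, so that glycerol gave the highest of the 3 levels by a wide margin. The remaining unnamed genes of this set, RTO4_11093, RTO4_15329, RTO4_13245, RTO4_15001 and RTO4_9938, had log2 fold changes of 6.26 to 7.03. RTO4_11093, RTO4_15329 and RTO4_9137 overlap neighboring models.

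In the other direction the fitted fold was largest for RTO4_11264 (scaffold 15, 478182 to 479265), with 5.35, 3.09 and 2.42 FPKM on glycerol and 2206, 2935 and 2607 on d-glc. RTO4_11264 fell by 9.17 on the log2 scale (SE 0.21, limma adjusted p = 3.52e-10), and its mean on d-galUA was as low as on glycerol, at 3.82 FPKM. RTO4_13993 showed the same order, with 15.6 ± 2.80 FPKM on glycerol, 12.5 on d-galUA and 1171 ± 155 on d-glc. RTO4_8516 had 9.40, 10.3 and 9.78 FPKM on glycerol and 781, 815 and 868 on d-glc. RTO4_12758, RTO4_13178 and RTO4_14822 had means of 0.89 to 4.32 FPKM on glycerol and of 116 to 226 on d-glc, and RTO4_15719 was listed at 0 in 2 glycerol libraries and had 78.1 ± 5.48 FPKM on d-glc. RTO4_13178 and RTO4_14822 overlap neighboring models.

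RTO4_15931 and RTO4_15937 lie near each other on scaffold 8 and had 157 and 123 FPKM on d-glc and under 1 FPKM in every glycerol library but 1, in which RTO4_15937 was listed at 1.00. The models next to them, RTO4_15932 and RTO4_15938, carry equal values (13.3 FPKM on glycerol and 10.5 on d-glc), so reads of near-identical copies may be split here and both members of the pair are uncertain. With the groups as labelled, the limma adjusted p of the 24 genes was 0.172 to 0.174, and without the library labelled d-glc replicate 4 all 24 were still called.

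**Figure D2:**
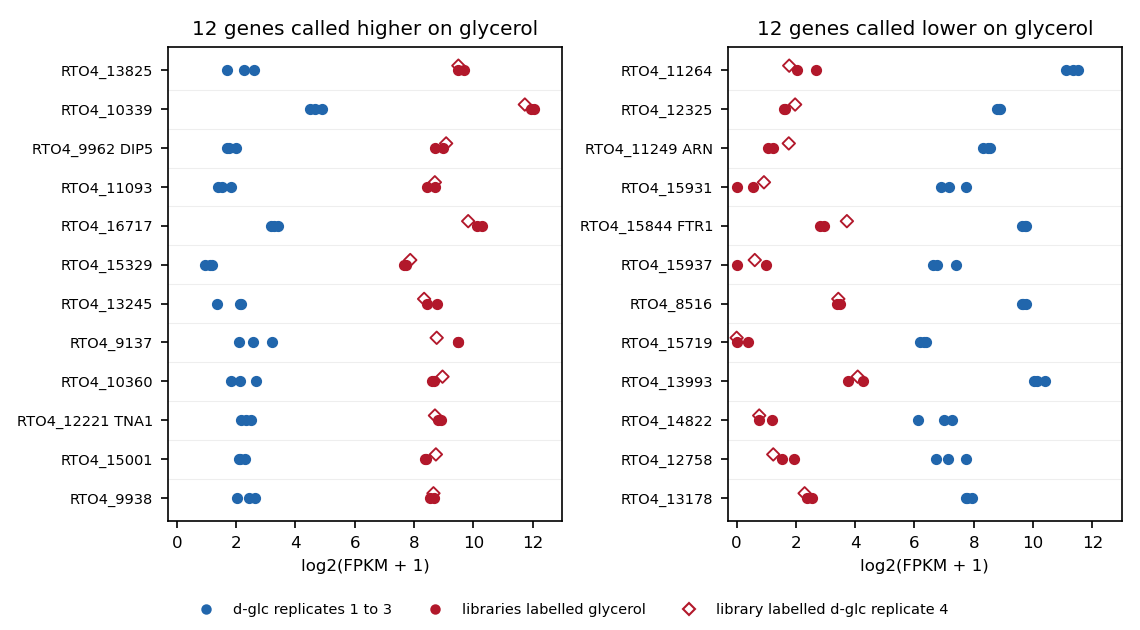
Values of log2(FPKM + 1) in each library for the 12 genes with the largest folds in each direction. Filled red points are the libraries labelled glycerol, open diamonds the library labelled d-glc replicate 4 and blue points d-glc replicates 1 to 3. The gap between the groups, with the diamond on the glycerol side, was a condition for choosing these genes, and the folds of means run from 52.2 upward.

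Genes for iron uptake were lower on glycerol. In yeasts, reduced iron is oxidized by the multicopper ferroxidase FET3 and passed to the permease FTR1, while ARN-type transporters take up iron bound to siderophores. All 5 members of the iron uptake list were called lower, against 9.81% of genes tested, with a median log2 fold change of -5.39 beside 0.02 for all genes. Their summed share of TPM was 0.0103% ± 0.0013 on glycerol and 0.382% ± 0.022 on d-glc (SD, n = 3).

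FTR1 (RTO4_15844, scaffold 8, 377961 to 380261) had 6.07, 6.77 and 12.2 FPKM on glycerol and 877, 786 and 845 on d-glc (log2 fold change -6.54, SE 0.21, limma adjusted p = 3.99e-09). The adjacent RTO4_15845, also listed as an FTR1 ortholog, had 21.6 ± 1.73 FPKM on glycerol and 162 ± 15.3 on d-glc. The ferroxidase FET3 (RTO4_9364, also listed as FET5) had 34.8, 33.6 and 36.8 FPKM on glycerol against 1330, 1144 and 1191 on d-glc, 34.8-fold lower. The groups lay far apart for these 3 genes, and the d-galUA means of 203, 72.9 and 243 FPKM lay between them.

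The siderophore transporter orthologs RTO4_11249 and RTO4_11669 fell by 7.10 and 5.39 on the log2 scale, to 1.61 and 3.66 FPKM. RTO4_12325, which the study's table names SIT1 in a list chosen partly on these libraries, had 2.11, 2.00 and 2.92 FPKM on glycerol and 437, 459 and 473 on d-glc. Other metal transporters are given for comparison. The zinc transporter ortholog RTO4_12825 (ZRT1 or ZRT2) had 9.17, 9.35 and 12.3 FPKM on glycerol and 175, 193 and 168 on d-glc, while the other ZRT ortholog, RTO4_14944, had 55.6 against 51.5 FPKM and did not pass the test. In each of these 7 genes lower on glycerol, the highest of the 3 glycerol values was that of the library labelled d-glc replicate 4.

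Several transporters had some of the largest folds toward glycerol. Of 22 amino acid and nutrient transporters, 7 were called higher and 4 lower, against 9.0% and 9.81% of genes tested. The 7 included DIP5 (RTO4_9962), a permease for acidic amino acids in S. cerevisiae, with 419, 508 and 542 FPKM on glycerol and 2.36, 2.20 and 2.95 on d-glc (log2 fold change 7.13, SE 0.12, limma adjusted p = 1.27e-10). The second DIP5 ortholog, RTO4_8962, had 403, 415 and 347 FPKM against 53.7, 31.9 and 44.3. TNA1 (RTO4_12221), a nicotinic acid permease, had 481, 445 and 417 FPKM against 3.49, 4.60 and 4.10, and PTR2 (RTO4_16031), a transporter of small peptides, had 1173 ± 53.6 against 99.5 ± 13.9. On d-galUA the means of the same 4 genes were 240, 181, 177 and 718 FPKM, between those of both groups. The amino acid permease ortholog RTO4_14229 (listed under CAN1, LYP1, ALP1, HIP1, GAP1 and TAT2) was 3.57-fold higher on glycerol, at 20.5 FPKM, and had 211 FPKM on d-galUA. The oligopeptide transporter ortholog RTO4_13539 (OPT1 or OPT2) was 2.27-fold higher on glycerol, at 444 FPKM, and had 206 FPKM on d-galUA.

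The called gene with the highest level on glycerol was RTO4_11990 (scaffold 2, 186018 to 188381), listed as an ortholog of RGT2 and SNF3, which act as glucose sensors in S. cerevisiae and belong to the hexose transporter family. It had 12677, 14726 and 11026 FPKM on glycerol and 653, 566 and 615 on d-glc (log2 fold change 4.38, SE 0.14, limma adjusted p = 3.28e-09). It ranked 2 of all genes on glycerol and 185 on d-glc, and it took 1.89% of TPM on glycerol against 0.0846%. On d-galUA it had 1753 FPKM. Of the 4 transporters called lower, only ZRT (RTO4_12825) and the oxodicarboxylate carrier ortholog ODC (RTO4_10635, 199 against 433 FPKM) were also called without the library labelled d-glc replicate 4, and ODC was not called without d-glc replicate 3 (log2 fold change -0.96). The orthologs of VBA3 (RTO4_12690) and of the purine and cytosine permease FCY2 (RTO4_14558) had -0.93 and -0.91 without that library, and were also not called without d-glc replicate 2 (-0.93) and d-glc replicate 1 (-0.81), respectively. ODC overlaps a neighboring model.

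Genes listed for the uptake and first steps of glycerol use differed by less than 2-fold between these carbon sources. None of the 5 members of this list was called, although each had an adjusted p under 0.05, 2 toward glycerol and 3 toward d-glc. Over all genes tested, 26.7% passed in each direction. The glycerol kinase ortholog GUT1 (RTO4_11022) had 49.0, 45.1 and 54.2 FPKM on glycerol and 23.7, 34.3 and 24.5 on d-glc (log2 fold change 0.84, SE 0.14, limma adjusted p = 0.000514). The groups did not overlap, and without d-glc replicate 2 the gene was called (1.00). GUT2 (RTO4_11039), the mitochondrial glycerol 3-phosphate dehydrogenase, was lower on glycerol, with 28.4, 28.4 and 35.0 FPKM against 42.2, 59.6 and 45.5 (log2 fold change -0.66). The glycerol symporter ortholog STL1 (RTO4_10704) was lower too, with 188, 215 and 189 FPKM against 265, 304 and 250 (log2 fold change -0.47). On d-galUA the same 3 genes had means of 122, 405 and 2361 FPKM, above both groups. The aldo-keto reductases of the list, RTO4_9774 and RTO4_11882, were matched to it as YPR1 or GCY1 orthologs. The paper describes RTO4_9774 as an l-glyceraldehyde and pentose reductase and RTO4_11882 as the d-galUA reductase. It does not place either in glycerol uptake or its first steps. They had 699 against 524 FPKM and 63.8 against 118 FPKM, and 3981 and 7667 FPKM on d-galUA. Leaving them out, GUT1 passed toward glycerol, and GUT2 and STL1 passed toward d-glc.

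No member of glycolysis (11 genes), gluconeogenesis (3) or the pentose phosphate pathway (6) was called, while adjusted p was under 0.05 for 6, 2 and 4 of them. Over all genes tested, 26.7% passed in each direction. In glycolysis, 4 passed toward d-glc and 2 toward glycerol, namely the hexokinase ortholog RTO4_10264 (0.37) and PGI1 (RTO4_9589, 0.38). In the lower part of glycolysis, the largest falls were those of phosphoglycerate mutase GPM1 (RTO4_9910) and phosphoglycerate kinase PGK1 (RTO4_15721). GPM1 had 221 FPKM on glycerol and 400 on d-glc (log2 fold change -0.84), and PGK1 had 548 and 837 (-0.60). The orthologs of TDH (RTO4_10613, 0.09) and ENO (RTO4_9037, -0.15), of the same part, did not pass the test. The gluconeogenic gene PCK1 (RTO4_10841), for phosphoenolpyruvate carboxykinase, was lower on glycerol, at 59.7 against 105 FPKM (-0.77, limma adjusted p = 0.00175). FBP1 (RTO4_15423), for fructose bisphosphatase, had 142 against 161 FPKM and did not pass the test. In the pentose phosphate pathway, all 4 genes that passed were higher on glycerol, and the largest value was that of the first enzyme, ZWF1 (RTO4_10000), at 311 against 173 FPKM (0.87, limma adjusted p = 0.000701), which was called without d-glc replicate 2 (1.04).

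Several genes for glycogen and UDP-glucose were higher on glycerol. Of 8 genes for glycogen, trehalose and UDP-glucose, 3 were called higher and 0 lower, against 9.0% and 9.81% of genes tested, 7 passed the adjusted p toward glycerol, against 26.7%, and the median log2 fold change was 0.94 beside 0.02 for all genes. The glycogen branching enzyme GLC3 (RTO4_12594) had 165, 181 and 179 FPKM on glycerol and 23.7, 44.7 and 36.1 on d-glc (2.34, SE 0.18, limma adjusted p = 2.44e-06). UGP1 (RTO4_11752), which makes UDP-glucose, had 456, 470 and 429 against 111, 157 and 135 FPKM, and the phosphoglucomutase ortholog RTO4_9959 had 228, 202 and 243 against 63.5, 97.5 and 86.4. Without d-glc replicate 2, which was the highest d-glc library in each of these 3 genes, glycogen synthase GSY (RTO4_9596) and glycogen phosphorylase GPH1 (RTO4_14256) were called as well, giving 5 of 8, and GSY was called without glycerol replicate 2 too (1.04). TPS1 (RTO4_11389), for trehalose phosphate synthase, was the member that did not pass (54.2 against 62.0 FPKM). UGP1 and RTO4_9959 overlap neighboring models.

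Genes for NADPH supply outside the pentose phosphate pathway were described singly, because 1 of the 4 genes matched to that list, RTO4_11629, is a succinate dehydrogenase ortholog (SDH3) and does not supply NADPH. The malic enzyme ortholog MAE1 (RTO4_12761) had 453, 548 and 474 FPKM on glycerol and 106, 146 and 111 on d-glc (log2 fold change 2.02, SE 0.13). The aldehyde dehydrogenase ortholog RTO4_12042 (listed under ALD2, ALD3, ALD4, ALD5 and ALD6) had 647, 617 and 663 against 106, 203 and 153 FPKM (limma adjusted p = 7.01e-06). These values do not show which cofactor it uses. MAE1 and RTO4_12042 were both called, and the isocitrate dehydrogenase ortholog RTO4_11129 had 604 against 630 FPKM and did not pass the test. RTO4_12042 was also high on d-galUA (439 FPKM), whereas MAE1 was at 85.8 FPKM there.

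Several peroxisomal genes for the breakdown of fatty acids were higher on glycerol as well. Of 10 genes for fatty acid oxidation and the carnitine shuttle, 4 were called higher and 0 lower, against 9.0% and 9.81% of genes tested, 8 passed the adjusted p toward glycerol, against 26.7%, and the median log2 fold change was 0.82. The thiolase POT1 (RTO4_13813) had 113, 122 and 136 FPKM on glycerol and 36.7, 67.0 and 49.3 on d-glc, and the multifunctional enzyme FOX2 (RTO4_11362) had 148, 175 and 177 against 43.2, 77.4 and 54.9. FAA2 (RTO4_12555), an acyl-CoA synthetase, and PEX11 (RTO4_14061), which acts in peroxisome division, were 3.00-fold and 2.62-fold higher. The groups did not overlap for these 4 genes, and d-glc replicate 2 was again the highest d-glc library.

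Genes for fatty acid and triacylglycerol synthesis did not move together. Of 16 members, 3 were called higher and 1 lower (18.8% and 6.25%, against 9.0% and 9.81% of genes tested), and 12 were not called. The median log2 fold change was -0.04, or 0.05 with TPM. The acyltransferase DGA1 (RTO4_16460), which makes triacylglycerol, had 90.8 FPKM on glycerol and 89.4 on d-glc, and acetyl-CoA carboxylase ACC1 (RTO4_8639, also listed as HFA1) had 139 and 113, neither past the test. The dehydratase PHS1 (RTO4_10677), an enzyme of fatty acid elongation, was called higher with 160, 126 and 181 against 52.5, 56.4 and 62.8 FPKM. The acyl-CoA binding protein ortholog ACB1 (RTO4_12826) had 975 ± 49.9 against 461 ± 60.2 FPKM, and 1 of 2 fatty acid synthase orthologs (RTO4_8777) had 140 ± 25.1 against 66.7 ± 13.5. ACB1 was not called without d-glc replicate 1 (log2 fold change 0.98), RTO4_8777 not without glycerol replicate 2 (0.96) or d-glc replicate 3 (0.89), and the reductase IFA38 (RTO4_16695), called lower at -1.08, not without d-glc replicate 2 (-0.98) or the library labelled d-glc replicate 4 (-0.97).

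**Figure D3:**
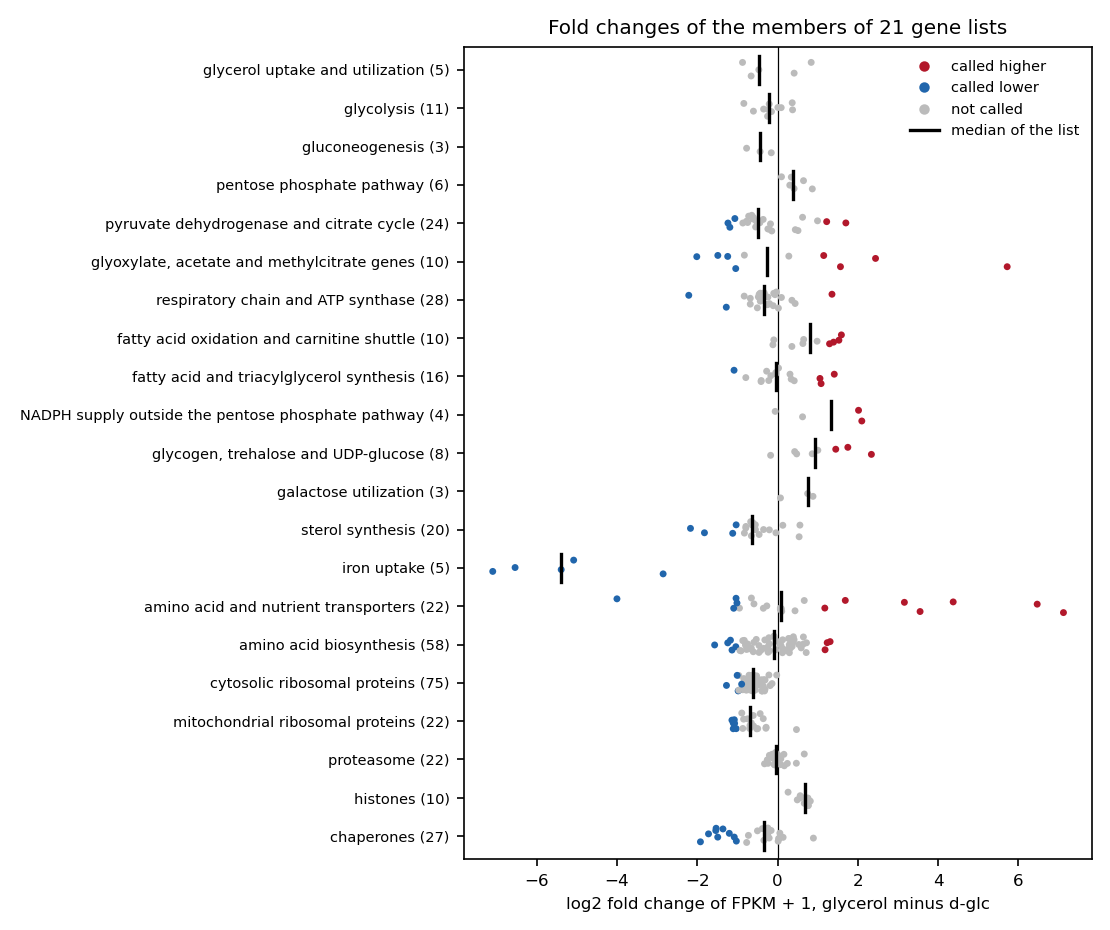
Log2 fold change of FPKM + 1, glycerol minus d-glc, for each member of 21 gene lists, with the number of members in parentheses. Red points were called higher and blue points lower on glycerol, gray points were not called, and the black bar is the median of the list. All 5 iron uptake genes lie at -2.85 or lower, and the 10 histone genes lie between 0.26 and 0.82.

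Genes for the use of acetate, lactate and pyruvate moved in both directions, with 4 of 10 members of this list called higher and 4 lower, against 9.0% and 9.81% of genes tested. JEN1 (RTO4_10184), a carboxylate transporter for lactate and pyruvate in S. cerevisiae, had 233, 271 and 253 FPKM on glycerol and 3.86 ± 1.06 on d-glc (5.73, SE 0.16, limma adjusted p = 1.24e-09), and 200 FPKM on d-galUA. Acetyl-CoA synthetase ACS (RTO4_14597) had 650, 625 and 559 against 105, 129 and 101 FPKM (2.44). With ADY2, these were a transporter of carboxylates, a transporter of acetate and the enzyme that activates acetate. The malate synthase ortholog RTO4_9457 (MLS1 or DAL7), of the glyoxylate cycle, had 129 against 109 FPKM and did not pass the test. Called lower were ACH1 (RTO4_13797), an acetate CoA-transferase, with 31.3, 29.5 and 37.4 against 135, 128 and 141 FPKM (-2.01), DLD1 (RTO4_13328), a D-lactate dehydrogenase, at 18.1 against 53.4 FPKM, and SFC1 (RTO4_12605), a succinate and fumarate carrier, at 6.83 against 17.7. The lactate dehydrogenase CYB2 (RTO4_16607) was called higher at 1.15, but not without d-glc replicate 1 (0.88). PDH1 (RTO4_12642), of propionate metabolism, was called lower at -1.04, but not without d-glc replicate 2 (-0.92) or without the library labelled d-glc replicate 4, where it had -0.97.

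Of 24 genes for pyruvate dehydrogenase and the citrate cycle, 2 were called higher (8.33%) and 3 lower (12.5%), shares near the 9.0% and 9.81% of all genes tested. The adjusted p was passed by 13 toward d-glc and by 5 toward glycerol, against 26.7% each, and the median log2 fold change was -0.49. The aconitase ortholog RTO4_11624 had 1213, 1134 and 1367 FPKM on glycerol and 489, 331 and 334 on d-glc (1.70, SE 0.16). The other 4 toward glycerol were SDH1 to SDH4, orthologs of the subunits of succinate dehydrogenase, at 0.51 (RTO4_16281), 1.00 (RTO4_11977), 0.62 (RTO4_11629) and 1.23 (RTO4_11802). SDH4 alone of these was called, but not without d-glc replicate 2 (0.99), and SDH2 was called without d-glc replicate 1 (1.12) or replicate 3 (1.11). SDH5 (RTO4_12093), an assembly factor of the same enzyme, had 36.1 against 84.6 FPKM and was called lower (-1.19), while the other assembly factor in the list, SDH7 (RTO4_11205), had 31.1 against 48.6 FPKM and did not pass the test. Also called lower were fumarase FUM1 (RTO4_14001), at 212 against 505 FPKM (-1.24), and isocitrate dehydrogenase IDH2 (RTO4_11681), at 202 against 422 FPKM (-1.06; -0.99 and not called without glycerol replicate 2).

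In the respiratory chain and ATP synthase, 2 of 28 genes were called lower (7.14%) and 1 higher (3.57%), against 9.81% and 9.0% of all genes tested. Of the 1224 genes with an ortholog name, 119 were called lower and 63 higher. The adjusted p was passed by 11 of the 28 toward d-glc (39.3%, against 26.7%), with a median log2 fold change of -0.33. The external NADH dehydrogenase ortholog NDE (RTO4_8972), which oxidizes cytosolic NADH, had 129, 127 and 115 FPKM on glycerol and 755, 475 and 534 on d-glc (-2.21, SE 0.15, limma adjusted p = 8.60e-07). The mitochondrial ADP/ATP carrier ortholog RTO4_12704 (PET9 or AAC3) had 4512, 4532 and 4003 FPKM against 11848, 8554 and 11486 (-1.28). This was among the 6 largest falls in mean FPKM of any gene. CIR2 (RTO4_10218), an ortholog of the dehydrogenase that passes electrons from the electron transfer flavoprotein to ubiquinone, was called higher, at 52.2 ± 5.59 against 20.1 ± 5.15 FPKM.

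**Figure D4:**
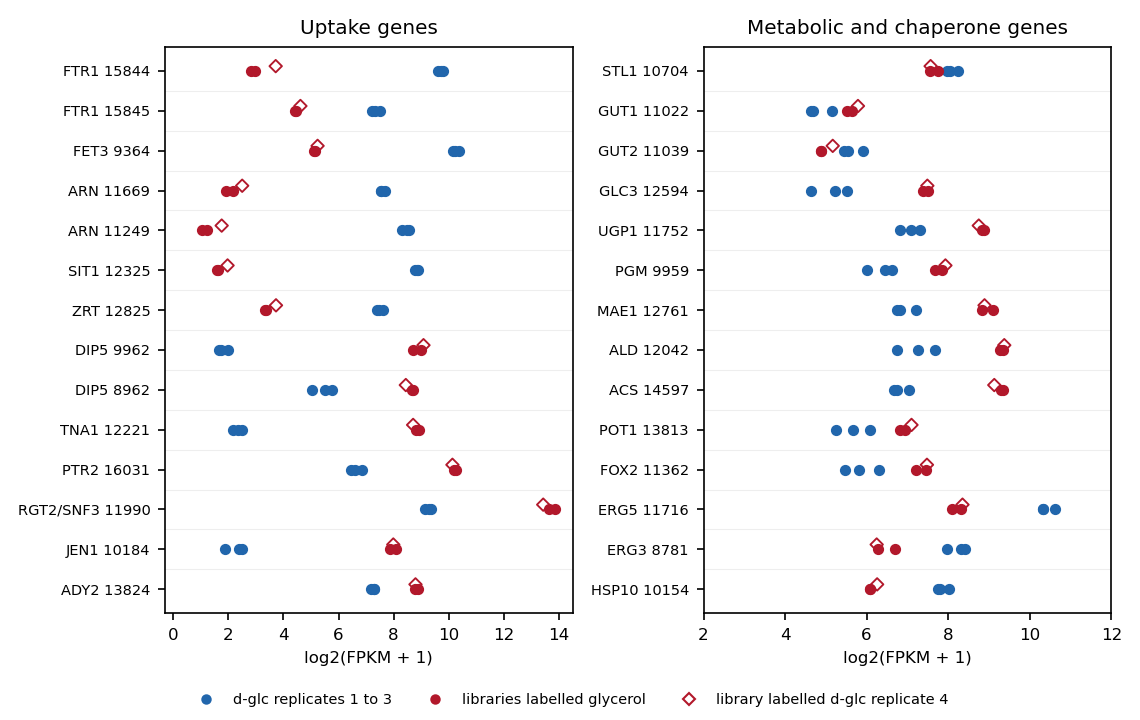
Values of log2(FPKM + 1) in each library for 14 uptake genes and 14 metabolic and chaperone genes, with the ID without its RTO4 prefix after each ortholog name. Filled red points are the libraries labelled glycerol, open diamonds the library labelled d-glc replicate 4 and blue points d-glc replicates 1 to 3. Of the 28 genes, STL1 RTO4_10704 had the smallest fitted log2 fold change in size (-0.47), at 197 against 273 FPKM. DIP5 RTO4_9962 had the largest (7.13), at 490 against 2.50 FPKM.

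Most genes for sterol synthesis were lower on glycerol, few of them by 2-fold. Of 20 members, 4 were called lower and 0 higher, against 9.81% and 9.0% of genes tested, 15 passed the adjusted p toward d-glc and 2 toward glycerol, against 26.7% each, and the median log2 fold change was -0.62. The desaturases ERG5 (RTO4_11716) and ERG3 (RTO4_8781), late enzymes of ergosterol synthesis, had 274, 318 and 325 against 1290, 1566 and 1284 FPKM (-2.17, SE 0.11) and 76.8, 103 and 74.9 against 317, 339 and 249 FPKM (-1.82, SE 0.15). The isomerase ERG2 (RTO4_10113) had 54.9 against 120 FPKM (-1.12), and the cytochrome P450 reductase NCP1 (RTO4_13286) had 186 against 381 (-1.03; -0.98 and not called without glycerol replicate 1). Further up the pathway, HMG-CoA reductase HMG (RTO4_9574) had -0.46 and HMG-CoA synthase ERG13 (RTO4_12122) -0.79, both past the adjusted p. Mevalonate kinase ERG12 (RTO4_8758), with 159 against 145 FPKM, and the late enzyme ERG4 (RTO4_10981), with 132 against 136, did not pass the test. The 2 members that passed toward glycerol were ERG26 (RTO4_8835, 0.54) and the geranylgeranyl diphosphate synthase BTS1 (RTO4_16503, 0.56), whose product is a precursor of carotenoids.

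Cytosolic ribosomal protein genes were lower on glycerol by less than 2-fold for the most part. Of 75 members, 53 passed the adjusted p toward d-glc and 0 toward glycerol, against 26.7% of genes tested in each direction, with a median log2 fold change of -0.61 that lay between -0.62 and -0.43 under the other scalings. Their share of TPM was 17.1% ± 1.14 on glycerol and 25.8% ± 3.65 on d-glc (SD, n = 3). With the 2-fold criterion, 4 were called lower (5.33%, against 9.81% of genes tested) and 0 higher. RPL1 (RTO4_16003) had 2426, 2455 and 2209 FPKM on glycerol and 6542, 4683 and 6055 on d-glc (-1.27). RPS12 (RTO4_8844), RPL14 (RTO4_15054) and RPS26 (RTO4_14765), at 2199 against 4506, 1234 against 2670 and 206 against 435 FPKM, were not called without the library labelled d-glc replicate 4, with limma adjusted p of 0.0347, 0.0750 and 0.103. RPS12 then missed the fold criterion. RPS12 was also not called without glycerol replicate 2 or d-glc replicate 3, RPL14 not without d-glc replicate 1 or 3, and RPS26 not without any 1 of the other libraries except d-glc replicates 1 and 2. Without d-glc replicate 3, the d-glc mean of RPS26 was 274 FPKM. The count was 1 without d-glc replicate 3 and 15 without d-glc replicate 2, so that it depended on single d-glc libraries. The most abundant transcript in both groups was RPS27 (RTO4_14937), with 17044, 17544 and 14937 FPKM on glycerol and 26934, 20417 and 27184 on d-glc (-0.58, limma adjusted p = 0.0396, and 0.125 without the library labelled d-glc replicate 4).

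Mitochondrial ribosomal proteins were also lower, with 6 of 22 called lower and 0 higher, against 9.81% and 9.0% of genes tested. The adjusted p was passed by 18 toward d-glc and by 1 toward glycerol, against 26.7% each. Their median log2 fold change was -0.69. MRP4 (RTO4_12319) had 50.5, 54.5 and 56.7 FPKM on glycerol and 124, 111 and 124 on d-glc (-1.14), and MRPL3 (RTO4_13675) had 51.3 ± 2.31 against 112 ± 13.9. Without d-glc replicate 3, the count called lower was 3. Histone genes moved the other way: 9 of 10 passed the adjusted p toward glycerol, against 26.7% of genes tested. Of the 10, 0 were called, and the median log2 fold change was 0.68. The member that did not pass was RTO4_8598, an H4 ortholog, with 215 against 180 FPKM, and the other H4 ortholog, RTO4_9231, had 2629 against 1559 FPKM. The H2B ortholog RTO4_12091 was called without d-glc replicate 3 (1.05). Their share of TPM was 3.22% ± 0.20 on glycerol and 1.89% ± 0.23 on d-glc. Proteasome genes gave a median of -0.03. Of 22, 2 passed the adjusted p toward glycerol and 0 toward d-glc, against 26.7% each, and none was called.

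Chaperones were called lower in 9 of 27 cases and higher in 0, against 9.81% and 9.0% of genes tested, although the median log2 fold change was -0.34. The HSP82 ortholog RTO4_11492 (also listed as HSC82) had 432, 462 and 451 FPKM on glycerol and 1503, 1246 and 1183 on d-glc (-1.54, SE 0.11, limma adjusted p = 1.61e-06), and it overlaps a neighboring model by 609 bp. Of the 4 Hsp70-type genes listed under SSA1, RTO4_12087 fell by 1.92, RTO4_9983 by 1.36 and RTO4_16570 by 1.20 on the log2 scale, and RTO4_8976 had 199 against 231 FPKM and did not pass the test. HSP60 (RTO4_10153) and HSP10 (RTO4_10154), which form the mitochondrial chaperonin, are encoded by adjacent models on scaffold 12 on opposite strands. They had 102 ± 4.57 against 290 ± 27.6 and 69.6 ± 5.12 against 232 ± 23.9 FPKM (-1.49 and -1.72). ZUO1 (RTO4_10334), which acts at the ribosome, was called at -1.53. The CCT subunits, of the cytosolic chaperonin, lay between -0.50 and 0.02 and none was called, while SSE (RTO4_11400, 240 against 519 FPKM) and RTO4_16570 were not called without d-glc replicate 1, which left 7 lower. YDJ1 (RTO4_14875, 52.8 against 109 FPKM) was not called without glycerol replicate 2 or d-glc replicate 3, and the HSP78 or HSP104 ortholog RTO4_12376, at 94.4 against 52.0 FPKM, was called higher without d-glc replicate 1 (1.16).

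Amino acid biosynthesis showed no common direction. Of 58 genes, 3 were called higher (5.17%) and 5 lower (8.62%), against 9.0% and 9.81% of all genes tested. Of the 1224 genes with an ortholog name, 63 were called higher and 119 lower. The adjusted p was passed by 16 toward glycerol (27.6%) and by 24 toward d-glc (41.4%), against 26.7% each. The median log2 fold change was -0.08, or 0.00 with TPM. Called higher were TRP5 (RTO4_9262), for tryptophan synthase, at 125 ± 3.21 against 52.4 ± 4.04 FPKM, the ARO3 or ARO4 ortholog RTO4_12155, of the step that commits carbon to aromatic amino acids, at 188, 191 and 193 against 66.7, 74.9 and 88.5, and the aspartate aminotransferase AAT2 (RTO4_8936), at 176 ± 7.03 against 77.4 ± 13.8. Its mitochondrial counterpart AAT1 (RTO4_14281) went the other way, with 679, 628 and 585 FPKM on glycerol and 1447, 1476 and 1239 on d-glc (-1.13). The branched-chain aminotransferase ortholog BAT (RTO4_14610) had 286 ± 27.5 against 645 ± 19.9 FPKM. The number called lower was 9 without d-glc replicate 2.

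In absolute terms, the 6 largest rises in mean FPKM were those of RTO4_11990, RTO4_10339, RTO4_15825, RTO4_9339, RTO4_10957 and RTO4_16820. RTO4_9339 had 3596, 4448 and 3037 FPKM on glycerol and 243, 220 and 245 on d-glc, and its mean on d-galUA, 3681 FPKM, was close to that on glycerol. RTO4_10957 had 3394, 3247 and 3654 against 468, 214 and 487 FPKM, and only 577 on d-galUA. RTO4_15825 was abundant everywhere, at 9474 ± 517 FPKM on glycerol and 5878 ± 373 on d-glc, and did not reach the 2-fold criterion. Of the 6 largest falls, 4 were ribosomal protein genes, 1 was the ADP/ATP carrier, and the last, RTO4_CAND77, had overlapping groups, with 3818, 2319 and 3056 FPKM on glycerol and 4621, 3117 and 10244 on d-glc (limma adjusted p = 0.0881). The value in d-glc replicate 3 lay far above the others, and without d-glc replicate 2 the gene was called lower (-1.20).

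Called genes also stood side by side on the scaffolds in 7 runs of at least 4 models called in the same direction, 6 higher and 1 lower on glycerol, the longest with 5 models. Over all genes tested, 9.0% were called higher and 9.81% lower. How many such runs would arise if called genes were placed at random was not worked out, and several runs hold overlapping models. The run of lower genes covered RTO4_12873 to RTO4_12877 (scaffold 3, 338825 to 347501) and ended with the vacuolar copper transporter ortholog CTR2 (RTO4_12877), at 15.5 ± 1.92 against 36.1 ± 7.64 FPKM. Its first model, RTO4_12873, overlaps both neighbors and was not called without glycerol replicate 1 or 2, d-glc replicate 3 (-0.45) or the library labelled d-glc replicate 4 (limma adjusted p = 0.0629). On scaffold 2, RTO4_CAND21, RTO4_12022, RTO4_12023, RTO4_12024 and RTO4_12025 (266026 to 273809) were higher, with means of 6.11 to 194 FPKM on glycerol and of 2.42 to 70.5 on d-glc. RTO4_12023 and RTO4_12024 overlap by 575 bp on the same strand, so their calls may rest on the same reads. A little further on, RTO4_12027, RTO4_12028, RTO4_12029 and RTO4_12030 (283485 to 288003) were higher by 2.31-fold to 4.25-fold, although several of these models overlap. The fourth run, RTO4_10258 to RTO4_10261 on scaffold 12 (442146 to 450489), held RTO4_10259, an ortholog of the protein kinase RIM11, with 776, 777 and 773 FPKM on glycerol and 342, 376 and 283 on d-glc. The next model, RTO4_10260, had 10.5, 12.2 and 7.98 against 0.701, 0.443 and 0.00 FPKM, and RTO4_10261 had 32.1 ± 4.71 against 3.14 ± 0.586.

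Lists that the study drew up from its own results, in part on these libraries, are small and are not independent of them. Over all genes tested, 9.0% were called higher and 9.81% lower, and 26.7% passed the adjusted p in each direction. Of 5 glucose regulators, RIM11 was called higher, SNF1 (RTO4_16778), the kinase that acts in glucose derepression, had 69.1 against 52.8 FPKM (0.40, limma adjusted p = 0.0393, and 0.115 without the library labelled d-glc replicate 4), and 0 were called lower. Of 5 G protein genes, 4 passed the adjusted p toward glycerol and 0 were called, and of 4 genes for tRNA thiolation, 4 passed toward d-glc and 0 were called. Of 11 other genes, 1 was called higher and 3 lower, and of 2 phosphoglucomutase genes, RTO4_9959 was called higher. Galactose utilization, with 3 members, had 0 calls, and GAL10 (RTO4_8969) was the highest at 440 against 241 FPKM (0.88), called without d-glc replicate 3 (1.06).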

How the data were processed

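The authors mapped single-end reads of 50 bp, from mRNA selected on beads, with HISAT2 2.1.0 to the genome of strain IFO 0880, version 4, and estimated abundance with StringTie 1.3.3b. The deposited FPKM is relative to gene length and mapped reads. The deposited TPM scales that estimate to an equal total in every library, and the deposited coverage is the mean read depth over a gene. Mapped reads were computed here from coverage and FPKM. The precision of low values is limited by this depth.

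log2(FPKM + 1) was fitted with limma 3.58.1 in R 4.3.3, with a mean-variance trend and all 9 libraries in 3 groups, and the contrast was glycerol minus d-glc. Fold changes of low genes are understated on this scale. The 99 models listed at 0 in every library were not tested. Python 3.11.15 with numpy 2.4.6 and pandas 2.3.3 gave the other values, and matplotlib 3.10.9 the figures. The fit was tested on simulated data. From the study's gene table only names, lists and mean FPKM (to check the groups) were used, not its q-values or fitness scores.

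Named are the 12 called genes with the largest fold in each direction (mean FPKM of at least 50 in the higher group, groups not overlapping), the 6 largest rises and falls in mean FPKM, members of 26 gene lists, and up to 4 runs of at least 4 neighboring models called alike. RTO4_11536, RTO4_15932 and RTO4_15938 were named after their values were seen. The lists, 21 by S. cerevisiae ortholog and 5 from the study's tables, hold 412 genes. The grouping, members and lists were chosen with earlier results of these data known. Alternatives covered the added constant, filters, fold criterion, scaling (TPM, median of ratios, quantile), the test, the grouping, a block for the replicate number, and each library left out.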

Additional observations from a re-analysis of the deposited data

Results flagged for a closer look

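Among the 4 libraries labelled d-glc, 1 lay far from the others. The genes called higher on glycerol in the fit without the library labelled d-glc replicate 4 made up 18.9% of TPM in that library, against 3.49%, 3.79% and 3.47% in d-glc replicates 1 to 3. Its gap to the nearest of these was 0.979 of the range of the 4 libraries, above Dixon's critical value for 4 samples. That value is passed by chance in about 1 in 20 groups, but this rate does not hold here, because the genes were chosen as low in d-glc replicates 1 to 3. For the genes called lower in the same fit, its share was 5.28%, against 17.0%, 16.2% and 14.8%, and the gap of 0.812 of the range did not reach that value. The cause was not tested. Groups of 3 libraries were not examined in this way.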

How the results depend on the processing

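The numbers called were 763 higher and 832 lower on glycerol, and they stayed within 1.5 times these values under all alternatives but the grouping as labelled and the removal of the fold criterion. With the groups as labelled, 1 gene was called higher and 0 lower, and the cause was not tested. With no fold criterion, which removes 1 of the conditions for a call, 2019 were called higher and 2019 lower. Leaving out each library in turn gave 687 to 855 higher and 799 to 881 lower, the lowest number higher without d-glc replicate 1 and the highest without d-glc replicate 2. With TPM, which shifted the median log2 fold change of all genes from 0.02 to 0.09, the numbers were 897 and 781. With no minimum FPKM they were 946 and 1037, and with a minimum of 10 they were 683 and 751. The remaining alternatives gave 711 to 764 higher and 758 to 850 lower. Of 453 named and listed genes, 315 had an adjusted p under 0.05. Over 21 alternatives, 811 of their values lost that threshold, 315 of them with the groups as labelled, 193 gained it, and 0 that had passed it changed sign.

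With a block for the replicate number, 756 genes were called higher and 819 lower, 756 and 817 of them the same genes. The numbers do not show a pairing, since correlations of deviations between same-numbered libraries ranged from -0.137 to 0.196. The library labelled d-glc replicate 4 is alone with its number, so that fit gives it no weight.

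Depth limits genes of low FPKM: 38 called genes were listed at 0 in at least 1 of the 6 libraries.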
